A study of Mus musculus with 6 samples.

Results

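The smooth muscle contractile apparatus and its regulators were described here as 32 genes, chosen by name, with earlier results of these data known, from the 24421 rows of a bulk RNA sequencing matrix of sorted aortic cells. All 32 were found in the matrix. They comprised 16 effectors, which build or anchor the contractile filaments, 10 signalling regulators of contraction, 5 transcription regulators, and *Aoc3*, a surface amine oxidase placed in no class. The libraries came from mice at 8 weeks of age on the 129S6/SvEv background, all carrying the conditional *CAG-Sun1/sfGFP* tracer, in which Cre switches on a green fluorescent protein at the nuclear envelope. Living GFP+ cells were sorted from the aortic root and ascending aorta. In 3 libraries the tracer was recombined by *Mef2c* SHF Cre, which marks cells derived from the secondary heart field (SHF), and in 3 by *Wnt1-Cre2*, which marks cells derived from the cardiac neural crest (CNC). No disease allele or treatment was part of either group. Each Cre marks an origin and not a cell type, so every kind of aortic cell of that origin could enter the sort.

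Smooth muscle shortens when myosin, phosphorylated on its regulatory light chain by myosin light chain kinase, pulls on actin filaments. Myosin phosphatase reverses the phosphorylation, the kinases encoded by *Rock1* and *Rock2* and the inhibitor encoded by *Ppp1r14a* restrain the phosphatase, and cyclic GMP-dependent kinase favours relaxation. Many of the contractile genes are switched on by serum response factor (SRF), which binds the CArG box in their regulatory DNA and works with myocardin or with the myocardin-related factors encoded by *Mkl1* and *Mkl2*. In the aorta this programme distinguishes vascular smooth muscle cells (VSMCs) from the fibroblasts beside them, although several of its genes, among them *Myl6*, *Flna* and *Actn1*, are active in nearly all cells.

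The CArG box was looked for in the promoters of the members because it is the sequence through which SRF, with myocardin or the myocardin-related factors, reaches many effectors. RefSeq promoters on GRCm38.p6, running from 250 bases before to 50 bases after a gene start, were held for 25 of the 32 members, as 31 promoters. The promoters of *Actg2*, *Aoc3*, *Mir143hg*, *Myh11*, *Myocd*, *Rock1* and *Tagln* were not held and so were not searched. An exact box stood in 3 of these 31 promoters (9.68%), those of *Myl9*, *Myl6* and *Srf*, compared with 535 of 32851 promoters of all genes (1.63%). Boxes 1 base off were then included, with a C or G at 1 inner position and the outer CC and GG kept. On this count 5 of 31 (16.1%) held a box, with *Acta2* and *Mkl1* added, compared with 3280 of 32851 (9.98%). The box reads alike on both strands, so each is counted once. Each line below gives the box in capitals with 20 bases on either side, 5′ to 3′ on the strand of the gene.
Acta2, 1 base off, 84 bases before the start: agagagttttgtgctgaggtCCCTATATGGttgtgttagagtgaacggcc
Acta2, 1 base off, 34 bases before the start: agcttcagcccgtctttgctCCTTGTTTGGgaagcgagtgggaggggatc
Myl9, exact, 161 bases before the start: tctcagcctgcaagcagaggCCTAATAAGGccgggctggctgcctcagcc
Myl6, exact, 50 bases before the start: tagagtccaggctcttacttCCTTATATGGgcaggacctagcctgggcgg
Srf, exact, 82 bases before the start: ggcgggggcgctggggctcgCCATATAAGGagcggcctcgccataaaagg
The *Acta2* windows lie on the minus strand at chr19:34255428-34255477 and chr19:34255378-34255427, that of *Myl9* on the plus strand at chr2:156775283-156775332, that of *Myl6* on the minus strand at chr10:128493030-128493079, and that of *Srf* on the minus strand at chr17:46556215-46556264. Distances are counted from the RefSeq start of each promoter, which for all of these genes lies inside the longer span that GENCODE gives the gene. The *Srf* promoter held another exact box, beginning 62 bases before the start, inside the right flank of the window shown. A match describes letters in this window only, and boxes farther from a start, such as in introns, were not searched.

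Each library was given as TPM, a level per transcript length scaled to the library's total, so genes can be set side by side within a library but the depth behind a value is unknown. Between 9255 and 11858 genes were above 0 TPM in a library, with the fewest in SHF replicate 2. The 10 fibroblast markers, led by *Dcn*, *Col3a1* and *Col1a1*, summed to 28907 to 31834.5 TPM in the SHF libraries and to 39554.5 to 51955.3 TPM in the CNC libraries, without overlap. The 8 VSMC markers, all of them members, summed to 1451.0 to 3033.1 TPM and 1297.3 to 1981.7 TPM, and each was above 0 in every library. Endothelial markers, led by *Pecam1*, *Emcn* and *Cldn5*, were higher in SHF replicates 2 and 3 (580.7 and 463.2 TPM over 8 genes) than in SHF replicate 1 (51.2 TPM) or the CNC libraries (21.8 to 37.9 TPM). Y-linked *Ddx3y* was listed at 0 in SHF replicates 2 and 3 and reached 42.2 to 61.3 TPM in the others, while *Xist*, transcribed from the inactive X of females, was at 52.0 and 38.8 TPM in those libraries and at 0 in the others. The sex-linked genes were therefore not balanced between the lineages. The part of these differences in the values below was not tested, and in such sorted bulk samples fewer cells of a type and less RNA per cell cannot be told apart. Tests measure the spread between 3 libraries per lineage, which the study calls biological replicates.

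The effectors as a class were more abundant than the regulators in both lineages. Their mean levels over the 6 libraries ran from 15.1 to 2135 TPM, 7 of 16 were at or above 100 TPM and none was under 10 TPM. Of the 9 effectors largely restricted to muscle, only *Acta2* and *Tagln* reached 100 TPM. The others, *Myh11*, *Cnn1*, *Smtn*, *Actg2*, *Synpo2*, *Des* and *Lmod1*, had means from 15.1 (*Lmod1*) to 85.6 TPM (*Myh11*). The regulators were far lower. Of 10 signalling regulators 1 had a mean at or above 100 TPM, *Rgs5*, and 4 were under 10 TPM, and the 5 transcription regulators lay between 1.49 and 16.3 TPM. The 32 genes together took 0.571% ± 0.129 (SD, n = 3) of the TPM of the SHF libraries and 0.492% ± 0.0726 (SD, n = 3) of that of the CNC libraries. The 4 most abundant members of each library held 71.0% to 77.7% of that sum. Of the 32 genes, 23 were above 0 in every library and 9 were listed at 0 in at least 1. These 9 were 2 of 16 effectors, 4 of 10 signalling regulators and 3 of 5 transcription regulators.

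**Figure D1:**
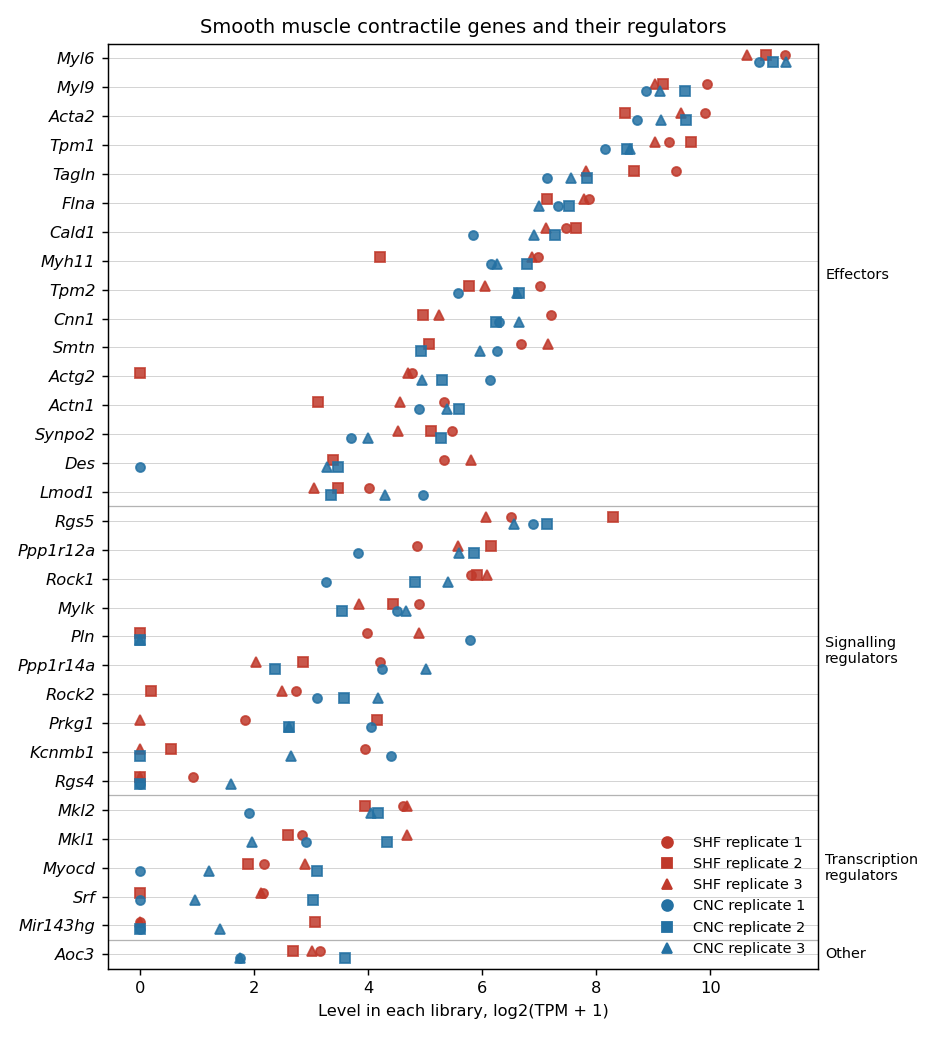
Level of each of the 32 genes on a log2(TPM + 1) axis, in rows grouped by class, with 1 point per library, SHF in red and CNC in blue, and circle, square and triangle for replicates 1, 2 and 3. *Myl6* lies at the right with all 6 points between 1595 and 2571 TPM, while the points of *Pln*, *Kcnmb1* and *Rock2* spread along the axis.

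*Myl6*, the essential light chain that muscle and non-muscle myosin share, was the most abundant member, with 2560.5, 2022 and 1595 TPM in the SHF libraries and 1866, 2197 and 2571 TPM in the CNC libraries, in the order of replicates 1, 2 and 3 used throughout. Its highest library was only 1.61 times its lowest, and the lineages overlapped throughout. *Myl9*, the regulatory light chain that the kinase phosphorylates, stood at 987, 574 and 523 TPM in SHF and 466, 755 and 552 TPM in CNC, with the highest value in one lineage and the lowest in the other. *Acta2*, the smooth muscle actin of vessels (chr19:34241090-34255590 on GRCm38, minus strand), was at 956, 363 and 716 TPM in SHF and 418, 766 and 559 TPM in CNC. Both ends of its range were SHF libraries, replicates 1 and 2, and the means of 678 ± 298 and 581 ± 175 TPM (SD, n = 3 each) differed by less than the spread within SHF.

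*Myh11*, the smooth muscle myosin heavy chain and the most specific VSMC gene of the set (chr16:14194535-14291372, minus strand), was at 125.0, 17.4 and 117 TPM in SHF and 69.9, 109 and 75.3 TPM in CNC. SHF replicate 2 stood apart below the other 5 libraries, and the other SHF libraries were above all 3 CNC libraries. The same library was the lowest of the 6 for *Acta2* and for *Cnn1*, calponin, which binds actin and slows the myosin motor, at 147, 30.3 and 36.6 TPM in SHF and 77.9, 74.7 and 99.1 TPM in CNC. It was also the lowest for *Actn1*, the actin crosslinker alpha-actinin of dense bodies and focal adhesions, at 39.2, 7.68 and 22.4 TPM in SHF and 28.6, 47.3 and 40.9 TPM in CNC. It was not low for *Tpm1*, *Cald1* or *Rgs5*, for which it held the highest value of the 6.

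*Tpm1*, tropomyosin, which lies along the actin filament (chr9:67022590-67049406, minus strand), was at 619.9, 809.7 and 524 TPM in SHF and 284, 372 and 387 TPM in CNC. All 3 SHF libraries were above all 3 CNC libraries. *Tpm2*, the other tropomyosin of the set, showed no such separation, at 129, 53.1 and 64.8 TPM in SHF and 46.7, 99.1 and 96.7 TPM in CNC. *Tagln*, encoding transgelin (SM22 alpha), an actin-binding protein of differentiated smooth muscle (chr9:45929619-45936058, minus strand), was at 673, 403 and 224 TPM in SHF and 139, 228 and 188 TPM in CNC. The 3 CNC values were close together, and the lineages overlapped only because CNC replicate 2 was above SHF replicate 3. In GENCODE M21, exons of the antisense transcript *Gm48529* cover 62.4% of the exonic bases of *Tagln*. *Gm48529* had no row of its own in the matrix. The library protocol does not mark strand, so reads of the pair cannot be told apart. *Pcsk7*, on the opposite strand, overlaps the end of *Tagln* and was at 1.69, 0.64 and 0 TPM in SHF and 4.46, 29.6 and 21.8 TPM in CNC.

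*Cald1*, caldesmon, which holds back the actin-activated motor of myosin, was at 176, 198 and 138 TPM in SHF and 56.1, 155 and 119 TPM in CNC. The lineages overlapped through CNC replicate 2. *Smtn*, smoothelin, a marker of contractile VSMCs, was at 102, 32.5 and 142 TPM in SHF and 75.1, 29.4 and 61.5 TPM in CNC, with a low library in each lineage. *Flna*, the X-linked crosslinker filamin A, was at 234, 139 and 220.4 TPM in SHF and 159.9, 182 and 126 TPM in CNC, and the *Ddx3y*-negative SHF libraries held the middle and the lowest of its 3 SHF values.

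Both effectors that were listed at 0 in some library are filament proteins. *Actg2*, the smooth muscle actin typical of gut and other viscera, was listed at 0 in SHF replicate 2 and reached 26.2 and 25.1 TPM in the other SHF libraries. In CNC it was at 69.4, 38.1 and 29.8 TPM, all above the SHF libraries. *Des*, the intermediate filament desmin of all muscle, was at 39.1, 9.39 and 55.1 TPM in SHF and listed at 0 in CNC replicate 1, with 10.1 and 8.64 TPM in CNC replicates 2 and 3. Desmin is also a gene of heart muscle, and cardiomyocyte markers summed to 148.7, 94.0 and 150.9 TPM in the SHF libraries and 37.9, 1.5 and 0 TPM in the CNC libraries. The most abundant of these 10 markers were *Tnnt2*, *Myl3* and *Actc1*. Each of the 10 was at 0 in some library, and *Myl2* and *Myl7* were at 0 in all. Their part in the level of *Des* was not tested. *Synpo2*, an actin-bundling protein of muscle, lay between 12.0 and 43.5 TPM, and *Lmod1*, a leiomodin that seeds actin filaments in smooth muscle, between 7.26 and 30.2 TPM, with the lineages overlapping for both.

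Among the signalling regulators, *Mylk*, myosin light chain kinase, was at 28.6, 20.6 and 13.3 TPM in SHF and 21.6, 10.7 and 24.3 TPM in CNC. Its substrate *Myl9* was thus 27.9 to 39.5 times more abundant per length in SHF and 21.5 to 70.9 times in CNC. *Ppp1r12a*, the subunit that targets myosin phosphatase to myosin, was at 28.1, 70.3 and 46.7 TPM in SHF and 13.1, 57.0 and 47.2 TPM in CNC. *Ppp1r14a*, whose product CPI-17 inhibits that phosphatase, was at 17.3, 6.20 and 3.06 TPM in SHF and 18.0, 4.15 and 31.2 TPM in CNC. The ratio of the targeting subunit to the inhibitor was between 0.731 and 15.3, and each lineage covered most of that range.

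*Rock1* and *Rock2*, whose products both inhibit myosin phosphatase, showed opposite patterns. *Rock1* was at 54.6, 59.1 and 66.6 TPM in SHF and 8.60, 27.3 and 41.3 TPM in CNC, and the SHF libraries were all above the CNC libraries. *Rock2* (chr12:16894895-16987823, plus strand) was at 5.63, 0.14 and 4.63 TPM in SHF and 7.62, 10.8 and 16.9 TPM in CNC, and the CNC libraries were all above the SHF libraries. *Rock1* exceeded *Rock2* in every library, by 9.70, 422.4 and 14.4 times in SHF and by 1.13, 2.52 and 2.44 times in CNC. The ratio in SHF replicate 2 rests on a *Rock2* level close to 0, and the other 2 SHF libraries were also above all CNC libraries.

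*Rgs5*, a regulator of G protein signalling that is enriched in pericytes and arterial smooth muscle, had the highest mean of the regulators, at 89.7, 311 and 66.2 TPM in SHF and 117, 139 and 93.0 TPM in CNC. One SHF library lay above the CNC libraries and the other 2 below them. Of the 8 pericyte markers 6 were tested, *Rgs5* among them, and 5 of the 6 had a negative log2 fold change, with a median of -0.64. *Abcc9* was at 73.5, 82.5 and 66.7 TPM in SHF and 192, 138 and 194 TPM in CNC. *Pdgfrb* lay between 75.8 and 222 TPM, and *Vtn* and *Higd1b* were listed at 0 in some library. The part of pericytes in the level of *Rgs5* was not tested. *Rgs4*, its neighbour in the genome and of the same family, was listed at 0 in 4 libraries and gave 0.89 TPM in SHF replicate 1, and 2.02 TPM in CNC replicate 3, too low for the test.

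The remaining signalling regulators were detected unevenly. *Prkg1*, the cyclic GMP-dependent kinase, was at 2.56, 16.9 and 0 TPM in SHF and 15.6, 5.07 and 5.13 TPM in CNC. *Kcnmb1*, the smooth muscle subunit of the calcium-activated potassium channel, was at 14.4, 0.45 and 0 TPM in SHF and 20.1, 0 and 5.26 TPM in CNC. *Pln*, phospholamban, which inhibits the calcium pump of the sarcoplasmic reticulum in heart and smooth muscle, was at 14.8, 0 and 28.5 TPM in SHF and 54.2, 0 and 0 TPM in CNC. Each of these genes was listed at 0 in at least 1 library and above 10 TPM in another of the same or the other lineage. The highest *Pln* value was in the CNC library with the largest cardiomyocyte sum of its lineage, 37.9 TPM, and the part of such cells in it was not tested.

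The transcription regulators were the lowest class. *Myocd*, myocardin, was at 3.50, 2.69 and 6.41 TPM in SHF and 0, 7.52 and 1.31 TPM in CNC. *Srf* was as low, at 3.43, 0 and 3.31 TPM in SHF and 0, 7.13 and 0.95 TPM in CNC, and both were highest in CNC replicate 2 and listed at 0 in CNC replicate 1. The myocardin-related factors were higher on average. *Mkl1* was at 6.14, 5.01 and 24.7 TPM in SHF and 6.53, 19.0 and 2.89 TPM in CNC, and *Mkl2* at 23.4, 14.4 and 24.7 TPM in SHF and 2.76, 16.9 and 15.6 TPM in CNC. For *Mkl2* the lowest library, CNC replicate 1, was the same library in which 11 of the 32 genes had their lowest value without a tie. *Mir143hg*, the host transcript of the smooth muscle microRNAs miR-143 and miR-145, was listed at 0 in 4 libraries, with 7.33 TPM in SHF replicate 2 and 1.62 TPM in CNC replicate 3. *Aoc3*, outside the classes, was at 7.87, 5.36 and 7.05 TPM in SHF and 2.35, 11.0 and 2.34 TPM in CNC.

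Effector levels were then set against regulator levels library by library. The median effector was at 138, 43.2 and 128 TPM in SHF and 72.5, 104 and 97.9 TPM in CNC. The median of the 15 regulators was at 14.4, 6.20 and 6.41 TPM in SHF and 8.60, 7.52 and 5.26 TPM in CNC. The effector median was above the regulator median in every library, by 9.55, 6.97 and 19.9 times in SHF and 8.43, 13.8 and 18.6 times in CNC. The means of this ratio, 12.1 ± 6.84 and 13.6 ± 5.09 (SD, n = 3 each), differed by less than the spread within either lineage. With only the 9 effectors largely restricted to muscle the ratio was 6.84 in SHF and 8.30 in CNC. Within the regulators, the signalling class had medians of 7.86 to 20.6 TPM and the transcription class medians of 0 to 7.52 TPM.

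The order held gene by gene for the transcription class more than for the signalling class. In the 6 libraries 12 to 15 of the 16 effectors were above every transcription regulator. Only 5 to 11 of 16 were above every signalling regulator, since *Rgs5* exceeded many effectors. The smallest number, 5, was in SHF replicate 2, where *Rgs5* was at 311 TPM. CNC replicate 1 had the lowest sum of both effectors (3798.2 TPM) and transcription regulators (9.3 TPM). SHF replicate 1, with the highest effector sum (6871.0 TPM), had a transcription regulator sum of 36.4 TPM, below that of CNC replicate 2 (50.6 TPM) and SHF replicate 3 (59.2 TPM).

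**Figure D2:**
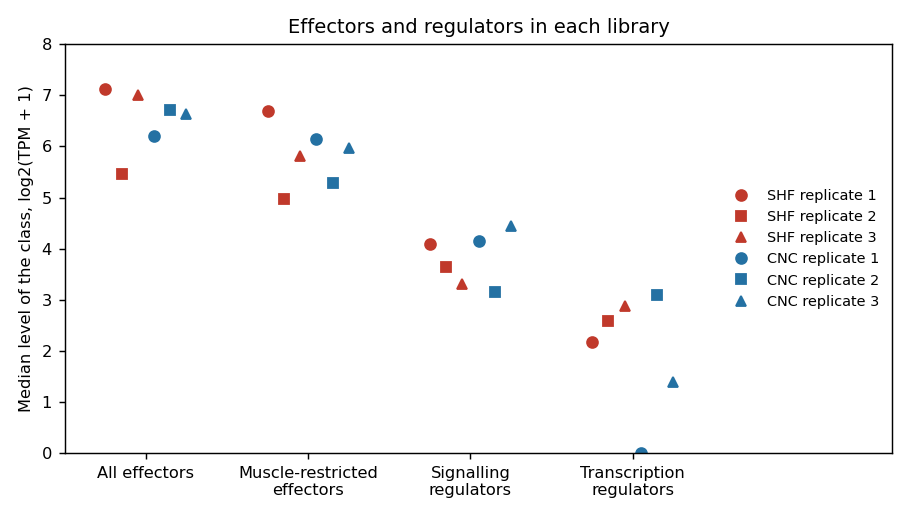
Median level of all effectors, of muscle-restricted effectors, of signalling regulators and of transcription regulators in each library, on a log2(TPM + 1) axis, SHF in red and CNC in blue. The effector medians, 43.2 to 138 TPM, lie above the signalling regulator medians, 7.86 to 20.6 TPM, and the transcription regulator medians, 0 to 7.52 TPM, with both lineages mixed in each class.

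The lineages were compared with limma on log2(TPM + 1), SHF minus CNC, for 10185 genes, those that reached 1 TPM in 3 or more libraries. Of the 32 genes 30 could be tested, all but *Rgs4* and *Mir143hg*. No member passed an adjusted p of 0.05 by limma, and neither did any of the 10185 genes (0.0%). At an unadjusted p under 0.05 there were 2 of 30 members, *Tpm1* and *Tagln*, compared with 5.86% of all genes tested. The limma log2 fold change of *Tpm1* was 0.89 (SE 0.29, adjusted p = 0.688), with means of 651 ± 145 TPM in SHF and 348 ± 55.6 TPM in CNC. For *Tagln* it was 1.11 (SE 0.42, adjusted p = 0.771), with means of 433 ± 226 and 185 ± 44.6 TPM. The fold change of *Tagln* was 0.73 without SHF replicate 1 and 1.52 without SHF replicate 3. Among the adjusted p-values of all members the smallest was that of *Tpm1* and the largest was 0.998.

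The libraries of the lineages did not overlap for 4 of 30 members, compared with 11.8% of all genes tested. *Tpm1* and *Rock1* were higher in SHF, as 6.11% of all genes were, and *Actg2* and *Rock2* were higher in CNC, as 5.68% of all genes were. These counts were near the background of the whole table. An exact two-sided permutation test of 3 libraries against 3 gives such a gene its smallest possible p, 0.1. *Rock1* had a limma log2 fold change of 1.43 (SE 0.72, adjusted p = 0.874) and *Rock2* one of -1.81 (SE 1.27, adjusted p = 0.884), and the separation of *Actg2* included the library listed at 0. The log2 fold change of *Rock1* was 0.82 without CNC replicate 1, and that of *Rock2* was -1.0 without SHF replicate 2, and -2.60 or -1.02 with a pseudocount of 0.1 or 5. Without SHF replicate 2 the count rose to 11 of 30 members, 7 of them higher in SHF, beside 21.4% of all genes, and without CNC replicate 2 to 12, 8 of them higher in SHF, beside 20.9%. *Myh11*, *Smtn*, *Flna*, *Des* and *Mkl2* joined the SHF-higher genes without SHF replicate 2, and *Tagln*, *Cald1*, *Synpo2*, *Des*, *Myocd* and *Aoc3* without CNC replicate 2. *Prkg1* and *Rgs5* joined the CNC-higher genes without SHF replicate 2, and *Lmod1* and *Ppp1r14a* without CNC replicate 2.

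The precision of these comparisons differed between the classes. The median standard deviation within a lineage on the log2 scale was 0.65 for effectors, 1.06 for signalling regulators and 1.16 for transcription regulators, compared with 1.19 for all genes tested. The median log2 fold change was 0.18 over effectors, 0.10 over signalling regulators and 0.59 over the 4 transcription regulators tested, compared with 0.02 for all genes. Positive fold changes were given by 19 members and negative ones by 11, compared with 5215 and 4970 of all genes. The 95% intervals of 28 of 30 members included 0. They were narrow for the abundant light chains, from -0.67 to 0.43 for *Myl6* and from -0.51 to 0.91 for *Myl9*. For *Acta2* the interval ran from -0.68 to 1.00, and for *Myh11* from -1.96 to 1.21. For *Mylk* the interval ran from -1.80 to 2.10 and for *Srf* from -2.35 to 2.53, and the widest spanned 8.19 on the log2 scale.

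**Figure D3:**
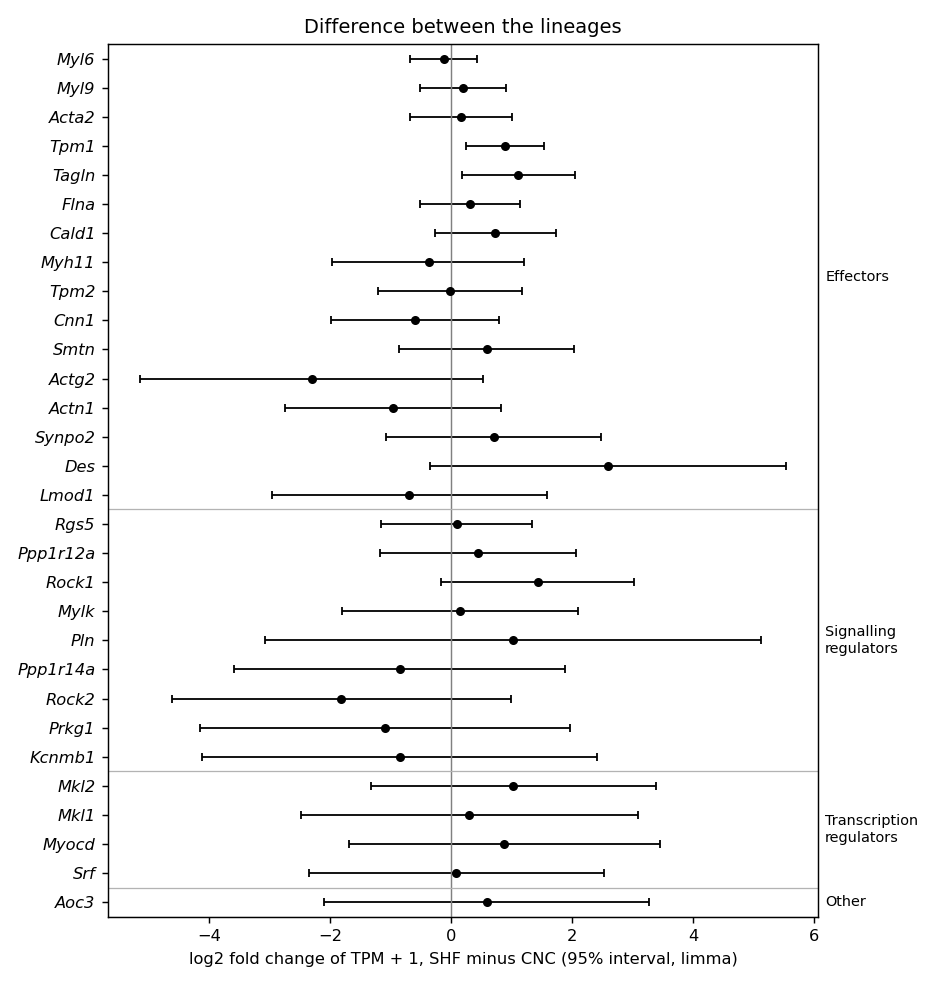
Fitted log2 fold change, SHF minus CNC, of the 30 members tested, as points with 95% limma intervals as bars, grouped by class, with a line at 0. The bars of *Tpm1* and *Tagln* lie to the right of 0 and the other 28 cross it.

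For several contractile proteins a close relative serves the non-muscle cytoskeleton, so the members were set against 11 such counterparts. The most abundant were *Actb* and *Actg1*, the cytoplasmic actins, and *Myl12b*, a regulatory light chain of non-muscle myosin, with means of 6903, 4379 and 571 TPM. The 8 smooth muscle genes *Acta2*, *Actg2*, *Myh11*, *Myl9*, *Cnn1*, *Tagln*, *Tpm1* and *Tpm2* together reached 0.169 ± 0.0355 times the summed TPM of the counterparts in SHF and 0.157 ± 0.0358 times in CNC (SD, n = 3 each), and the lineages overlapped. *Acta2* was at 0.0722, 0.0294 and 0.0596 times the sum of the cytoplasmic actins in SHF and 0.0417, 0.0770 and 0.0553 times in CNC. Without the actins, whose proteins are nearly identical, the ratio of the sums was 0.608 in SHF and 0.515 in CNC.

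The balance differed from protein to protein. *Myh11* reached 0.852, 0.104 and 1.16 times the sum of *Myh9* and *Myh10*, the non-muscle myosin heavy chains, in SHF and 0.940, 1.71 and 1.92 times in CNC. It was below that sum in 3 libraries, by far the most in SHF replicate 2, and above it in the other 3. *Tagln* was at 0.784, 1.32 and 0.334 times *Tagln2* in SHF and 0.263, 0.581 and 0.512 times in CNC. *Cnn1* stayed below its relatives *Cnn2* and *Cnn3* in every library, at 0.0550 to 0.284 times their sum, and *Myl9* lay at 0.444 to 0.812 times the sum of *Myl12a* and *Myl12b*. Gene-level TPM sums all transcripts of a gene, so the smooth muscle and non-muscle products of *Tpm1*, *Cald1*, *Myl6* and *Mylk* cannot be told apart.

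**Figure D4:**
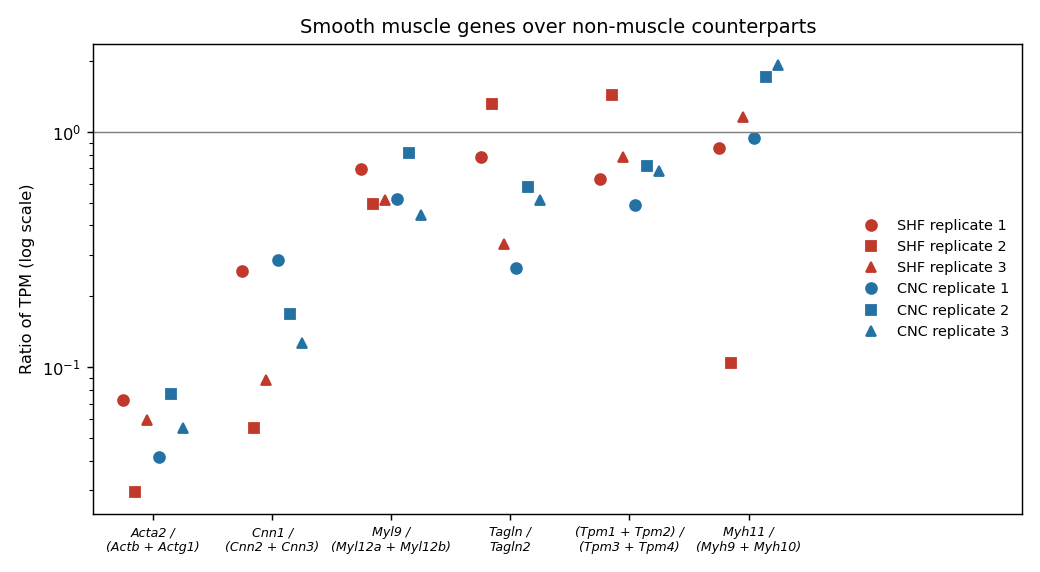
Ratio of the TPM of smooth muscle genes to that of their non-muscle counterparts in each library, on a log axis with a line at 1, SHF in red and CNC in blue. The actin ratios lie lowest, between 0.0294 and 0.0770, and the myosin heavy chain ratios spread from 0.104 to 1.92 across the line.

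No counterpart passed an adjusted p of 0.05 by limma. All 11 had a positive log2 fold change with a median of 0.36, and 3 did not overlap between the lineages, each higher in SHF, compared with 6.11% of all genes tested. *Actb* was at 7903, 8223 and 7183 TPM in SHF and 6042, 5903 and 6165 TPM in CNC (log2 fold change 0.36, SE 0.19, limma adjusted p = 0.874), and *Actg1* had a log2 fold change of 0.25 (SE 0.20, limma adjusted p = 0.890). *Myh10*, named after its values were seen, was at 82.5, 103 and 68.1 TPM in SHF and 40.1, 25.5 and 20.5 TPM in CNC (log2 fold change 1.56, SE 0.57, limma adjusted p = 0.737). The summed level of the counterparts was 14966.1 to 17415.5 TPM in SHF and 12431.2 to 13261.6 TPM in CNC, without overlap.

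Other genes of the pathway also had no member past an adjusted p of 0.05 by limma in either direction. Of the calcium, phosphatase and cyclic GMP genes, 20 of the 27 found in the matrix were tested, with a median log2 fold change of 0.09. Among these, 1 did not overlap between the lineages, higher in CNC, compared with 5.68% of all genes. The most abundant were *Calm2*, which encodes calmodulin, the calcium sensor of myosin light chain kinase, and *Rhoa*, whose product activates the kinases encoded by *Rock1* and *Rock2*. Their means of 572 (*Calm2*) and 569 TPM (*Rhoa*) were each above that of *Rgs5*, the most abundant of the regulators, 136 TPM. The adrenergic receptor gene *Adra1a* was listed at 0 in all 6 libraries.

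Among 19 tested actin-anchoring and LIM protein genes the median log2 fold change was 0.21, and 4 did not overlap, all higher in SHF, as 6.11% of all genes were. *Dstn*, an actin-depolymerizing protein, and *Csrp2* and *Csrp1*, LIM proteins of smooth muscle, led this list with means of 954, 892 and 183 TPM, and the first 2 were more abundant than *Acta2*. Among 23 tested cofactors and repressors of SRF and smooth muscle genes the median was 0.45, and 4 did not overlap, again all higher in SHF, where the share of all genes was 6.11%. *Id3*, an inhibitor of basic helix-loop-helix factors, and *Fhl1*, a LIM protein of muscle, had means of 972 and 932 TPM, far above *Srf* or *Myocd*. *Tcf21*, a factor of fibroblast and epicardial cells that opposes smooth muscle differentiation, was at 295, 238 and 531 TPM in SHF and 57.6, 106 and 48.0 TPM in CNC. The SHF libraries were all above the CNC libraries (log2 fold change 2.31, SE 0.46, limma adjusted p = 0.475). It exceeded *Myocd* in every library, while the summed fibroblast markers were lower in SHF.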

How the data were processed

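The authors amplified RNA of sorted cells by SmartSeq2, prepared libraries with Nextera XT, aligned reads with Bowtie2 and estimated levels with RSEM 1.2.25 on mm10. They deposited TPM, 1 column per library, and no counts. The gene annotation and read length are not given in the sources used here. The depth per library is unknown, so no counting interval was given.

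From the deposited TPM, the lineages were tested against each other by limma 3.58.1 under R 4.3.3, with lmFit and a trended eBayes, on log2(TPM + 1), a scale that understates the change of low genes. Genes reaching 1 TPM in 3 or more libraries entered, with Benjamini-Hochberg adjustment over all 10185 and a threshold of 0.05. The fit was tested on simulated data. Class medians, sums and ratios were taken within each library.

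The 32 members and all lists were chosen with earlier results of these data known. All members were named, with the 3 most abundant genes of each other pathway list. For markers the rule took the 3 most abundant and those at 0 in every library. *Ddx3y*, *Xist* and *Pcsk7* stand outside it, as do *Myh10*, *Gm13305*, *Vtn* and *Higd1b*, which were chosen after their values were seen. Pericyte markers (led by *Rgs5*, *Pdgfrb* and *Abcc9*) summed to 274.5 to 653.9 TPM in SHF and 531.9 to 701.2 TPM in CNC. Leukocyte markers (*Cd74*, *C1qb*, *Lyz2*) summed to 18.5 to 537.1 TPM over all libraries, with *Ptprc* at 0 in each. Skeletal muscle markers (*Tnni2*, *Tnnt3*, *Ckm*) summed to 16.4 to 60.0 TPM in SHF and 0.9 to 7.6 TPM in CNC. *Myh1*, *Myh2*, *Myh4* and *Myl1* were at 0 in each library. Some results are left out and not reported here.

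GENCODE M21 gave the positions of all 32 members by symbol, on GRCm38 (mm10). Promoters were RefSeq sequences on GRCm38.p6, of another strain than the mice. Shared sequence was searched as exact windows of 50 bases. *Myl6* shared 18.5% of its windows with other genes' transcripts and *Acta2* 0.4%. The alternatives were other pseudocounts, filters, scalings and ratio definitions, eBayes without a trend, a replicate block, and the omission of single libraries. Single-cell data were not analysed here. Python 3.11.15 with pandas 2.3.3 and matplotlib 3.10.9 was used for tables and plots.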

Additional observations from a re-analysis of the deposited data

How the results depend on the processing

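No member passed the limma threshold under any of the 14 settings tried. With a pseudocount of 5, 1 gene of the whole table passed as higher in CNC, *Gm13305*, which is no member. With the replicate block 0 genes and 0 members passed. The shared numbers did not pair the libraries, with correlations of -0.011, -0.004 and -0.011 between the deviations of same-numbered libraries. Of 414 member fold changes under the alternatives 391 kept their direction and 23, in 11 members, changed sign, 21 of them when a library was left out. With 1 library left out the log2 fold change ran from -0.14 to 0.55 for *Acta2*, -0.85 to 0.53 for *Myh11*, -0.08 to 0.39 for *Myl9*, -0.29 to 0.05 for *Myl6*, -0.38 to 0.25 for *Tpm2*, -0.20 to 0.42 for *Mylk*, -0.19 to 0.83 for *Ppp1r12a*, -0.57 to 0.54 for *Rgs5*, -2.08 to 0.17 for *Kcnmb1*, -0.58 to 0.94 for *Srf* and -0.35 to 0.93 for *Mkl1*. *Srf* also turned to -0.01 with a pseudocount of 5 and to -0.08 after quantile normalization. The cause of these reversals was not tested beyond the library removed. Members whose lineages did not overlap numbered 4 to 12 with a library left out, where fewer libraries must separate and at least 20.1% of all genes tested did not overlap under each omission, compared with 11.8% with all libraries. The ratio of effectors to regulators was 22.6 in SHF against transcription regulators alone, 8.30 in CNC with muscle-restricted effectors, and 7.44 in CNC against signalling regulators alone. No mean was formed in CNC against transcription regulators alone, because their median was 0 in CNC replicate 1. Without the actins the smooth muscle to non-muscle ratio was 0.608 in SHF and 0.515 in CNC, as the largest terms of its denominator are removed. Depth is unknown, so a value of 0 does not show absence.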
